A study of Mus musculus with 47 samples.

Results

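Foxa1, Gata3, Cited1 and Tbx3 are transcriptional regulators of the hormone-sensing luminal cells of the mammary gland. They were selected by symbol, and all 4 were present among the 22007 gene symbols of the table, which gives them in capitals. Polyadenylated RNA had been sequenced from epithelium of ovariectomized FVB mice, sorted into a luminal mature (LM), a luminal progenitor (LP) and a mammary stem cell (MSC) fraction. For 14 days the mice had received estradiol and progesterone with telapristone acetate (EP+TPA), the same hormones with mifepristone (EP+RU486), the hormones alone (EP) or a sham treatment. Both added drugs are steroids that block the progesterone receptor. Doses and ages are not in the labels. There were 47 libraries from 20 mice in 12 groups, each of 4 separate mice except LM EP with 3, and all groups shared the ovariectomy.

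Values were on the scale of FPKM (fragments per length of transcript, relative to sequencing depth) and had been adjusted gene by gene within 3 sets of libraries. The 15 LM libraries formed set 1, the 16 LP libraries with 6 of the MSC libraries set 2, and the remaining 10 MSC libraries set 3. Over 7279 genes with values above 1 in all libraries, the mean of a gene in a set deviated from that of the 3 sets by a median of 0.0331 on the log2 scale. Levels in LM were therefore not compared with those in LP or MSC. The means of the 4 genes were less even, for Cited1 61.6 in set 1, 34.1 in set 2 and 38.7 in set 3 as deposited. It also left each gene a lowest value of its own in a set. In LM that value was 0 for Foxa1 and Cited1, and a gene listed at 0 was not read as absent. All levels below are rescaled FPKM unless deposited values are named. The values of a library summed to between 281351 and 349128 (LM), 297710 and 358375 (LP) or 217977 and 356258 (MSC), and depth in reads is unknown.

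Hormone-sensing luminal cells carry the receptors for estrogen, progesterone and prolactin and relay hormone signals to neighbouring cells through secreted factors. FOXA1 is a pioneer factor that binds nucleosomal DNA and opens it for the estrogen receptor. GATA3, a zinc finger factor, is required for luminal differentiation and is present throughout the luminal lineage. CITED1 binds no DNA itself and acts as a coactivator of the estrogen receptor through CBP and p300. TBX3 is a T-box repressor required for the embryonic mammary placode.

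Promoter sequences are shown for members that moved differently with treatment. RefSeq windows on the mouse build GRCm38.p6, from 250 bases before to 50 bases after an annotated start, matched 3 of the 4 symbols (Foxa1, Gata3 and Cited1) with 5 windows. Each window was searched on both strands for 5 motifs. The forkhead motif, bound by FOXA1 and its relatives, was TGTTTAC. The motif of the zinc finger family that includes GATA3 was searched as AGATAA. A single repeat of the estrogen receptor element was searched as AGGTCA, and that of the progesterone receptor element was searched as AGAACA. The T-box family repeat, bound by TBX3 and its relatives, was TCACACC. Capitals mark the matches, and all 3 genes lie on the minus strand. The Foxa1 window is chr12:57546062-57546361, the Cited1 window, the last of its 3, is chrX:102250727-102251026, and the Gata3 window is chr2:9878551-9878850.
Foxa1: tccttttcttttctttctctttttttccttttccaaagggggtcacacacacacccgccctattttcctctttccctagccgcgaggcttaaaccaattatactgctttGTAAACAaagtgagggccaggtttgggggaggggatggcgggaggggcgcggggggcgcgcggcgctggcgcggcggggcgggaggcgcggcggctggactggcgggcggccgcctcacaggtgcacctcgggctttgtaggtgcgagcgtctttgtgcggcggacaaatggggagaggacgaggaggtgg
Cited1: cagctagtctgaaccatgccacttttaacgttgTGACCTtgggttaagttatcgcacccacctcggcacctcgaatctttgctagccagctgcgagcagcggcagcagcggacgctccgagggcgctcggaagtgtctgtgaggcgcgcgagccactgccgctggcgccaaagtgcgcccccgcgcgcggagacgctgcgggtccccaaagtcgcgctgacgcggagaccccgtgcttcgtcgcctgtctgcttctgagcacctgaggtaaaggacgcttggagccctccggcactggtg
Gata3: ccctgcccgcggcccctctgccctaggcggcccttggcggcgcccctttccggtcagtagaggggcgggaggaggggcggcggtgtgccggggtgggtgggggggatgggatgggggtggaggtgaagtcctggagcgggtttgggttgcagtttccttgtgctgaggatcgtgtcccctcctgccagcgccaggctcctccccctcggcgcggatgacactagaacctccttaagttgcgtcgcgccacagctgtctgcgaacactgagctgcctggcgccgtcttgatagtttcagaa
The Foxa1 window held 1 forkhead match on the reverse strand (GTAAACA), at position -141 from the start, and 3.65% of 32851 promoter windows held such a match. The Cited1 window held 1 estrogen receptor repeat on the reverse strand (TGACCT), at position -217, as 16.3% of all windows did. The Gata3 window and the other 2 Cited1 windows held none of the 5 motifs. GATA letters occurred in 11.2%, progesterone receptor repeats in 19.0% and T-box repeats in 3.98% of all windows. No matches overlapped.

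In LM, Foxa1, Cited1 and Tbx3 were low or listed at 0 with both antagonists, whereas the ranges of Gata3 overlapped in all 4 treatments. Foxa1 was listed at 0 in 3 EP+TPA mice and at 3.36 in mouse 332. It was listed at 0 in all 4 EP+RU486 mice. Foxa1 had levels of 15.8, 43.6 and 12.5 in EP mice 306, 311 and 327, against 12, 67.6, 29.25 and 35.6 in sham mice 301, 305, 310 and 326. Every antagonist library lay below every EP and every sham library, and the EP and sham ranges overlapped. Foxa1 fell with EP+TPA relative to EP (adjusted p = 0.00387) and to sham (adjusted p = 0.000126), by limma with Benjamini-Hochberg adjustment over 11894 genes. With 3 of 4 libraries at 0, the size of these drops depends on the value added before the log. The fitted log2 folds were -3.90 against EP and -4.45 against sham with 1 added, and -6.41 against EP and -6.97 against sham with 0.1 added. With EP+RU486 the adjusted p was 0.000805 against EP and 4.16e-05 against sham. No fold is given for that group, since it was listed at 0. EP against sham gave -0.55 (SE 0.59, adjusted p = 0.558). The Foxa1 call for EP+TPA against EP had an adjusted p of 0.105 when only those groups were fitted.

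Cited1 differed from Foxa1 in LM in that it was lower with EP alone than with sham. It was listed at 0 in all 4 EP+TPA mice and in all 4 EP+RU486 mice. In EP mice 306, 311 and 327 it had levels of 0, 80.0 and 2.59, against 134.5, 408.0, 111.1 and 206.6 in sham mice 301, 305, 310 and 326. All EP libraries lay below all sham libraries, and the EP library of mouse 311 stood far above the other EP libraries. Cited1 fell by 4.84 on the log2 scale with EP relative to sham (SE 1.04, adjusted p = 0.00797, limma). The call rested on the library of EP mouse 327, without which the log2 fold was -4.40 (adjusted p = 0.0501). Against sham, EP+TPA had an adjusted p of 0.000261 and EP+RU486 one of 0.000214. Against EP, neither antagonist passed for Cited1 (adjusted p = 0.147 with EP+TPA and 0.0871 with EP+RU486, limma). Without EP mouse 306 both passed, with adjusted p of 0.0328 for EP+TPA and 0.0140 for EP+RU486.

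Tbx3 in LM was low with both antagonists, and EP and sham overlapped. Its levels were 1.12, 1.16, 2.22 and 0.964 in EP+TPA mice 312, 328, 332 and 336, and 1.76, 0.768, 1.14 and 1.15 in EP+RU486 mice 308, 313, 329 and 333. The EP levels were 6.45, 40.4 and 2.89 in mice 306, 311 and 327, against 11.4, 34.25, 21.95 and 20.8 in sham mice 301, 305, 310 and 326. No antagonist library reached any EP or sham library. Tbx3 fell by 2.19 relative to EP with EP+TPA (SE 0.59, adjusted p = 0.0493) and by 2.29 with EP+RU486 (SE 0.59, adjusted p = 0.0167), by limma. Relative to sham it fell by 3.22 with EP+TPA (SE 0.54, adjusted p = 0.00135) and by 3.31 with EP+RU486 (SE 0.54, adjusted p = 0.000844). The call for EP+TPA against EP was fragile. It remained when mouse 301, 327 or 332 was left out and was lost when any 1 of the other 12 LM mice was, with an adjusted p of up to 0.132. The log2 fold without EP mouse 311 was -1.21 with EP+TPA and -1.31 with EP+RU486. EP against sham gave -1.03 (SE 0.59, adjusted p = 0.239), and -2.01 (adjusted p = 0.00167) without EP mouse 311.

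Gata3 did not separate the treatments in LM. Its levels were 92.6, 53.8, 23.3 and 43.2 in EP+TPA mice 312, 328, 332 and 336, and 53.9, 38.0, 47.6 and 78.5 in EP+RU486 mice 308, 313, 329 and 333. In EP mice 306, 311 and 327 they were 56.9, 43.1 and 45.5, against 18.0, 85.5, 33.6 and 25.1 in sham mice 301, 305, 310 and 326. All 4 ranges overlapped. The log2 difference was -0.02 for EP+TPA against EP (95% interval -1.04 to 0.998) and 0.13 for EP+RU486 against EP (-0.89 to 1.15). EP against sham gave 0.49 (-0.53 to 1.51). The intervals are wide, so equal levels of Gata3 were not shown. Gata3 passed in LM only with library weights, for EP+TPA against sham (log2 fold 1.12, adjusted p = 0.0283) and EP+RU486 against sham (0.82, adjusted p = 0.0432).

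**Figure D1:**
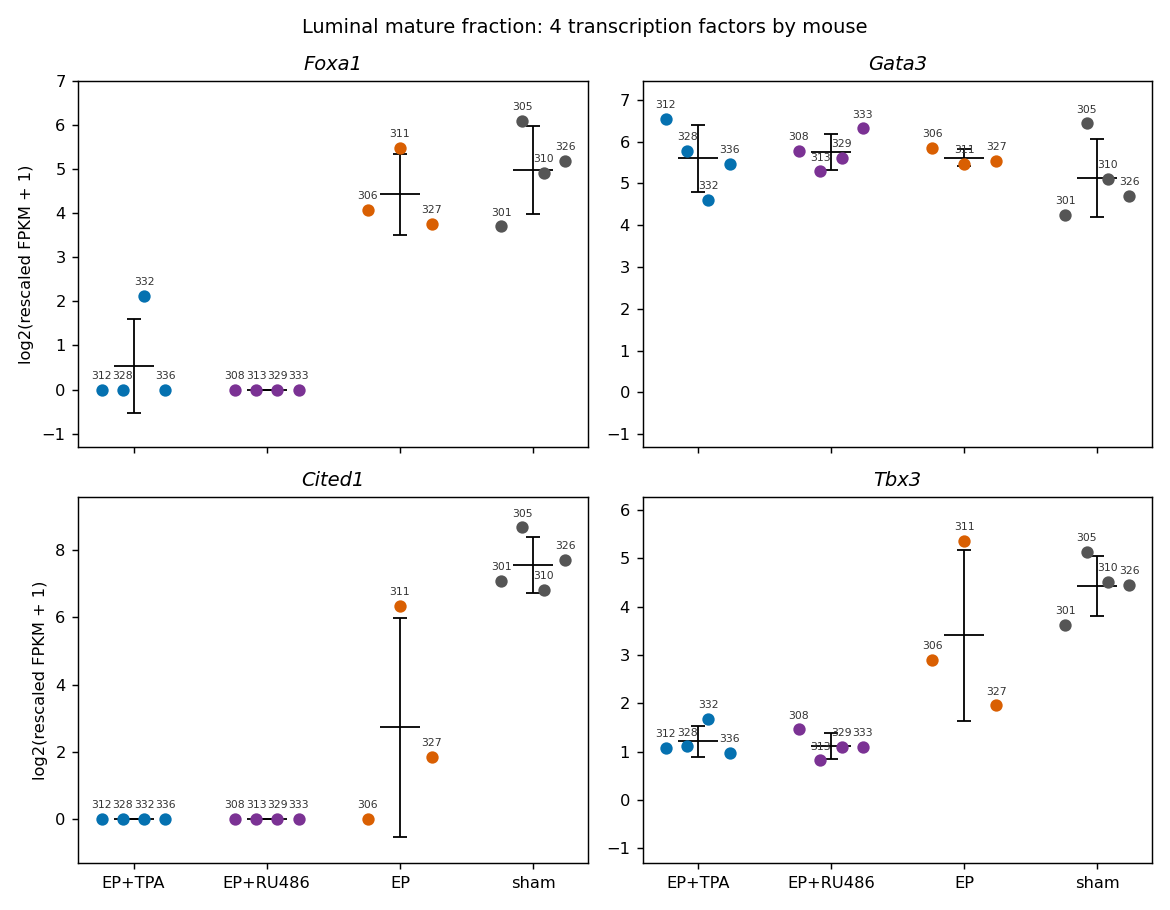
Levels of Foxa1, Gata3, Cited1 and Tbx3 in the LM fraction, as log2(rescaled FPKM + 1), for EP+TPA, EP+RU486, EP and sham from left to right. Points are mice with their numbers, and bars are mean and SD; Foxa1 and Cited1 lie on 0 with the antagonists except for Foxa1 in mouse 332 (3.36), while Gata3 overlaps in all groups.

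In counts over the 4 genes in LM, 2 were lower with EP+TPA than with EP, against 3.2% of all genes tested that were lower, and 2 were lower with EP+RU486 than with EP, against 9.55%. Of all genes, 1.32% were higher with EP+TPA and 8.31% with EP+RU486 than with EP. Relative to sham, 3 were lower with EP+TPA (9.26% of all genes), 3 with EP+RU486 (11.9%) and 1 with EP (9.14%). Of all genes, 6.87% were higher with EP+TPA, 9.74% with EP+RU486 and 10.3% with EP than with sham.

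In LP, the same 3 genes were low with both antagonists, and Cited1 was again lower with EP than with sham. Foxa1 had levels of 2.29, 2.56, 2.10 and 3.72 in EP+TPA mice 312, 323, 328 and 336, and of 4.09, 2.59, 2.44 and 2.53 in EP+RU486 mice 304, 308, 324 and 329. Its levels were 29.7, 5.27, 21.6 and 59.3 in EP mice 306, 311, 322 and 327, against 7.84, 14.5, 6.92 and 14.8 in sham mice 301, 305, 310 and 326. The antagonist libraries lay below all others, and 3 of 4 EP libraries lay above all sham libraries. As deposited, Foxa1 was 2.43 to 3.84 with EP+TPA and 2.775 to 4.61 with EP+RU486, near its lowest value in the set (2.02). Foxa1 fell relative to EP by 2.65 with EP+TPA (SE 0.49, adjusted p = 0.00175) and by 2.55 with EP+RU486 (SE 0.49, adjusted p = 0.00217), by limma over 11384 genes. Against sham the log2 folds were -1.66 with EP+TPA (SE 0.49, adjusted p = 0.0669) and -1.57 with EP+RU486 (SE 0.49, adjusted p = 0.0534). Both passed when EP mouse 311 was left out of the shared fit (adjusted p = 0.00234 with EP+TPA and 0.00264 with EP+RU486, limma). Both also passed without EP mouse 327 (adjusted p = 0.0197 with EP+TPA and 0.017 with EP+RU486). EP against sham gave 0.99 (SE 0.49, adjusted p = 0.137), and 1.60 (adjusted p = 0.000985) without EP mouse 311, the only EP library below the sham range.

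Cited1 in LP stood at 10.3 to 11.3 in the 4 EP+TPA mice and at 10.4 to 14.3 in the 4 EP+RU486 mice, close to the lowest value of the gene in its set (11.65 as deposited). The EP levels were 30.6, 16.7, 42.2 and 65.1 in mice 306, 311, 322 and 327, against 79.7, 115.4, 42.1 and 135.7 in sham mice 301, 305, 310 and 326. Only sham mouse 310 lay within the EP range. Cited1 fell with EP relative to sham by 1.28 (SE 0.36, adjusted p = 0.0127, limma), and the adjusted p was 0.0698 with only those groups in the fit. It was lower still with the antagonists. Relative to EP the drop was 1.60 with EP+TPA (SE 0.36, adjusted p = 0.00571) and 1.499 with EP+RU486 (SE 0.36, adjusted p = 0.00787). Relative to sham Cited1 fell by 2.88 with EP+TPA (SE 0.36, adjusted p = 0.000217, limma) and by 2.78 with EP+RU486 (SE 0.36, adjusted p = 0.000241, limma). With the antagonist libraries close to the lowest value of the gene in its set, the size of these drops depends on that value.

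Tbx3 in LP had levels of 1.496 to 1.795 in EP+TPA mice and of 4.39, 2.10, 2.57 and 1.63 in EP+RU486 mice 304, 308, 324 and 329. The EP levels were 14.7, 5.20, 14.97 and 18.3 in mice 306, 311, 322 and 327, against 4.72, 18.3, 5.83 and 12.5 in sham mice 301, 305, 310 and 326. EP and sham overlapped, and all antagonist libraries lay below them. As deposited, Tbx3 was 1.64 to 2.02 with EP+TPA, and 1.64 was its lowest value in the set. Relative to EP, Tbx3 fell by 2.31 with EP+TPA (SE 0.38, adjusted p = 0.000736) and by 1.89 with EP+RU486 (SE 0.38, adjusted p = 0.00298), by limma. Relative to sham it fell by 1.92 with EP+TPA (SE 0.38, adjusted p = 0.00839) and by 1.51 with EP+RU486 (SE 0.38, adjusted p = 0.0216). The last call was lost, with an adjusted p of 0.053 to 0.063, without sham mouse 305 or 326 or without EP+RU486 mouse 308, 324 or 329. EP against sham gave 0.39 (SE 0.38, adjusted p = 0.476).

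Gata3 in LP had levels of 85.7, 54.8, 48.8 and 36.1 in EP+TPA mice 312, 323, 328 and 336, and of 79.2, 57.9, 59.9 and 57.7 in EP+RU486 mice 304, 308, 324 and 329. It had 51.4, 53.4, 42.0 and 51.0 in EP mice 306, 311, 322 and 327, against 45.0, 65.9, 57.15 and 49.15 in sham mice 301, 305, 310 and 326. Gata3 averaged 56.3 ± 21.1 with EP+TPA, 63.7 ± 10.4 with EP+RU486 and 49.5 ± 5.06 with EP, against 54.3 ± 9.23 with sham (SD, n = 4 each). All EP+RU486 libraries exceeded all EP libraries, with a log2 fold of 0.35 (95% interval -0.08 to 0.78, adjusted p = 0.248, limma). No comparison of Gata3 passed in LP, and the intervals against EP and sham stayed within 1 log2 unit of 0.

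**Figure D2:**
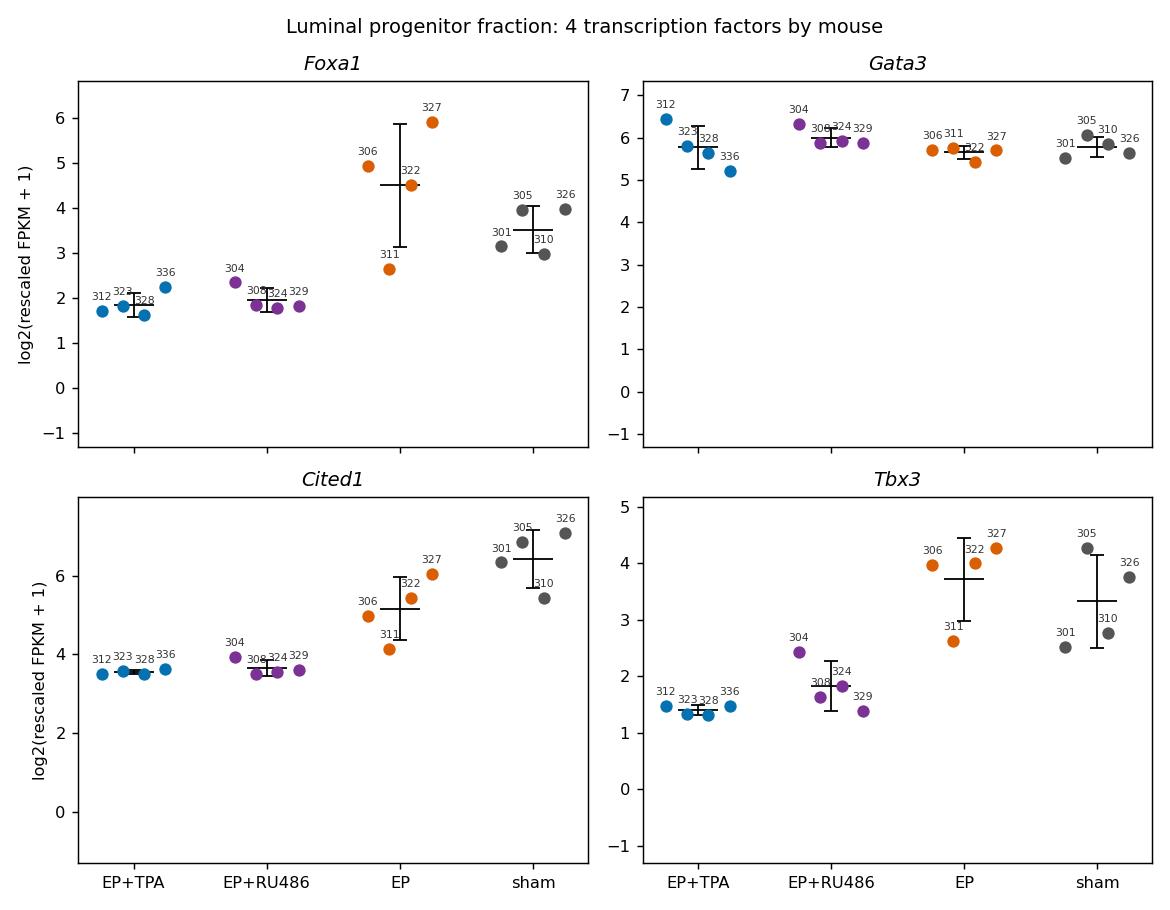
Levels of Foxa1, Gata3, Cited1 and Tbx3 in the LP fraction, as log2(rescaled FPKM + 1), for EP+TPA, EP+RU486, EP and sham from left to right. Points are mice with their numbers, and bars are mean and SD; EP mouse 311 has the lowest EP level of Foxa1 (5.27), Cited1 (16.7) and Tbx3 (5.20).

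Of the 4 genes in LP, 3 were lower with EP+TPA than with EP (10.6% of all genes were lower) and 3 with EP+RU486 than with EP (11.8%). Of all genes, 7.81% were higher with EP+TPA and 9.03% with EP+RU486 than with EP. Relative to sham, 2 were lower with EP+TPA (3.3%), 2 with EP+RU486 (6.39%) and 1 with EP (16.1%). Of all genes, 1.79% were higher with EP+TPA, 4.24% with EP+RU486 and 16.3% with EP than with sham. The summed level of 8 stromal markers in LP was 21.6 to 92.5 with EP+TPA, 19.0 to 52.2 with EP+RU486 and 112.8 to 219.6 with EP, against 29.2 to 155.9 with sham. The extracellular matrix gene Dcn fell relative to EP with EP+TPA (log2 fold -1.88, adjusted p = 0.0167, limma) and with EP+RU486 (-2.07, adjusted p = 0.00916, limma). It was the only 1 of the 8 stromal markers that fell, a share near those of all genes (10.6% and 11.8%). With EP+RU486 1 of the 8 rose relative to EP. The part of stromal RNA in the results for Foxa1, Cited1 and Tbx3 was not tested. The comparisons share EP or sham libraries within a fraction, and LM and LP libraries largely came from the same mice, so these counts are not independent of each other.

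**Figure D3:**
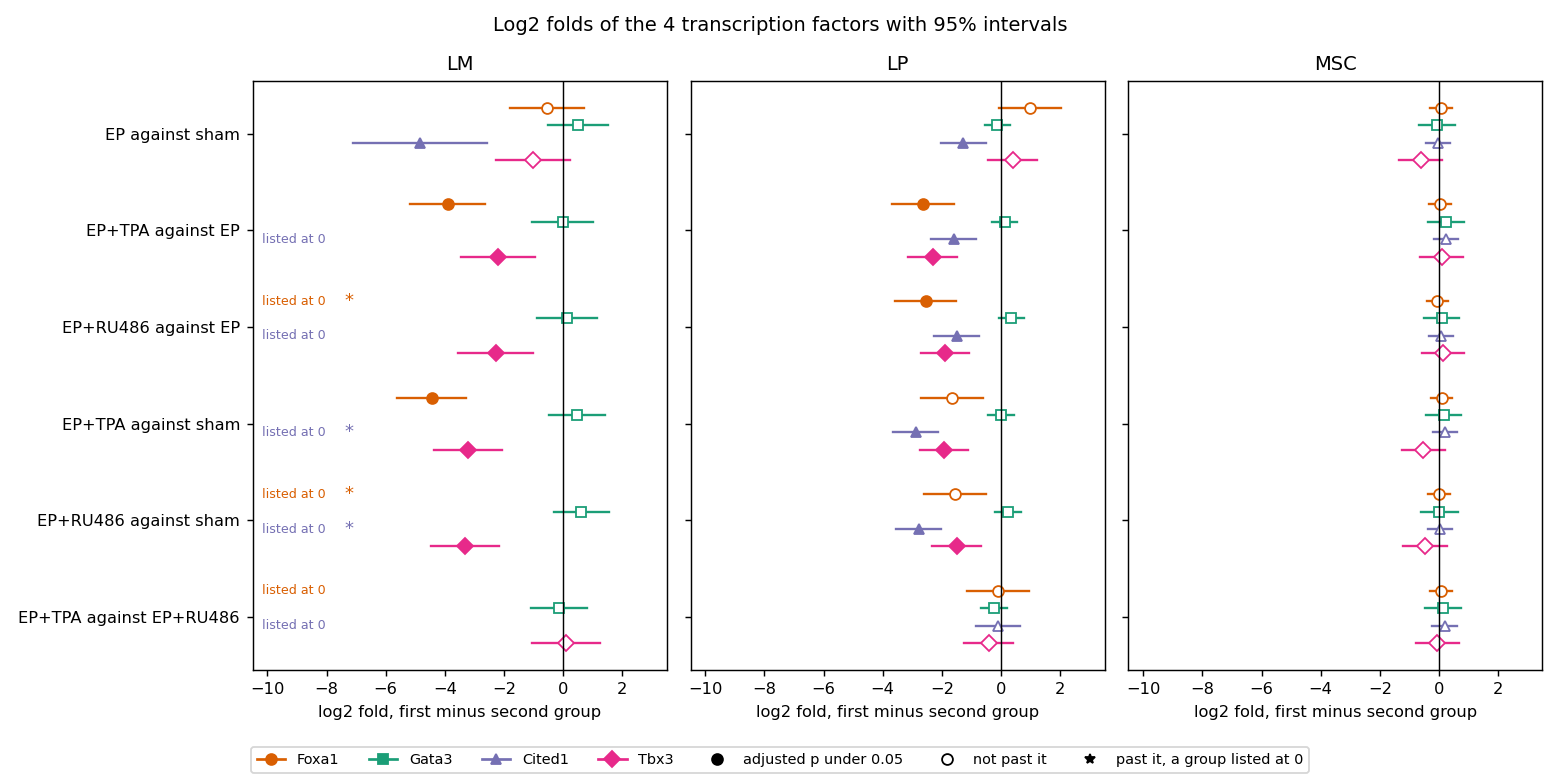
Log2 folds of the 4 genes, first group minus second, with 95% intervals in LM, LP and MSC. Filled symbols have an adjusted p under 0.05, and where a group was listed at 0 no fold is drawn and a star marks a comparison past the threshold. In LM this leaves out Cited1 with either antagonist and Foxa1 with EP+RU486. Where drawn, Foxa1, Cited1 and Tbx3 lie left of 0 for the antagonists against EP or sham in LM and LP, and Gata3 lies near 0.

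The antagonists were compared directly at the single time of 14 days, with doses not given in the labels. In LM, LP and MSC, 12 pairs of values were tested (4 genes in 3 fractions) and none passed, with p adjusted over all genes of a fraction. Over all genes the counts past the threshold were 0 in each fraction (0.0% of genes), with an unadjusted p under 0.05 for 1588 genes in LM, 199 in LP and 197 in MSC. In LM, EP+TPA minus EP+RU486 was 0.09 for Tbx3 (95% interval -1.07 to 1.26) and -0.15 for Gata3 (-1.09 to 0.80). Cited1 was listed at 0 in all 8 antagonist libraries, and Foxa1 in 7 of them. In LP the differences were -0.09 for Foxa1 (-1.14 to 0.95), -0.10 for Cited1 (-0.86 to 0.66), -0.42 for Tbx3 (-1.24 to 0.40) and -0.23 for Gata3 (-0.66 to 0.20). For Foxa1 in LM the interval was -0.64 to 1.70. The intervals leave room for differences of 1 log2 unit or more for Foxa1 and Tbx3, and for Gata3 in LM. Cited1 in LM gave no difference to read, since all 8 antagonist libraries were listed at 0. The antagonists were thus not shown to act alike.

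Mice with both luminal fractions could be ranked in each. Among EP mice, 311 had the highest LM levels of Foxa1, Cited1 and Tbx3 (43.6, 80.0 and 40.4) and the lowest LP levels (5.27, 16.7 and 5.20). EP mouse 327 had the highest LP levels of these genes and the lowest LM levels of Foxa1 and Tbx3. Among sham mice the orders were more alike. Tbx3 was highest in mouse 305 and lowest in mouse 301 in both fractions, and Cited1 was lowest in mouse 310 and next lowest in mouse 301 in both. Foxa1 was highest in mouse 305 in LM, and in LP mice 305 and 326 had nearly the same level (14.5 and 14.8). With 3 EP mice in LM, no test of these orders was made.

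Of the receptor genes of hormone-sensing cells, Prlr and Pgr were also lower with the antagonists than with EP in LM. Prlr, the prolactin receptor, was listed at 0 in 3 of 4 EP+TPA and in all 4 EP+RU486 LM libraries, against 89.9 to 234.2 with EP, and at 27.9 in EP+TPA mouse 332. The adjusted p was 0.00675 for EP+TPA and 0.00112 for EP+RU486 against EP (limma). Pgr, the progesterone receptor, had at most 0.705 with EP+TPA and 0.186 with EP+RU486 in LM, against 1.46 to 10.9 with EP (adjusted p = 0.0185 for EP+TPA and 0.00547 for EP+RU486, limma). Esr1, the estrogen receptor gene, fell in LM with EP relative to sham by 2.32 (SE 0.42, adjusted p = 0.00243). Its EP levels were 2.44, 11.5 and 1.62, with the highest again in mouse 311, against 16.6 to 30.15 with sham. Esr1 levels in LM were 0.592 to 1.38 with EP+TPA and 0.492 to 2.08 with EP+RU486, and the last range overlapped that of EP. In LP, Pgr rose with EP relative to sham by 1.08 (SE 0.34, adjusted p = 0.0224), and EP mouse 311 had the lowest EP levels of Pgr (0.946), Prlr (40.6) and Esr1 (2.82).

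Among 20 other genes of hormone-sensing cells in LM, 10 fell and 0 rose with EP+TPA relative to EP, with a median log2 difference of -1.78 (-0.0046 over all genes). With EP+RU486 12 fell and 1 rose, with a median of -1.91 (-0.023 over all genes). The secreted factors Areg and Wnt4 and the hormone Stc2 were listed at 0 in all 4 EP+RU486 libraries and in 3 of 4 EP+TPA libraries, and mouse 332 was again the exception, with levels of 64.95, 6.23 and 22.55. Fgfr2, a growth factor receptor, had at most 3.72 with EP+TPA and 0.343 with EP+RU486, against 6.98 to 25.7 with EP. For EP against sham in LM, 2 of the 20 genes rose and 4 fell, beside 10.3% and 9.14% of all genes. Tnfsf11, which encodes RANKL, rose (adjusted p = 0.000554), as did the estrogen target Greb1 (log2 fold 2.23, SE 0.32, adjusted p = 0.000458, limma). Relative to sham, 12 of 20 fell with each antagonist, beside 9.26% of all genes with EP+TPA and 11.9% with EP+RU486. Xbp1 rose with EP+TPA by 0.91 (SE 0.21, adjusted p = 0.00838).

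In LP, 12 of 19 tested genes of this list fell and 0 rose with EP+TPA relative to EP, with a median log2 difference of -1.45 (0.0030 over all genes). With EP+RU486 12 fell and 1 rose, with a median of -1.57 (-0.024 over all genes). Relative to sham, 7 of 19 rose and 3 fell with EP, beside 16.3% and 16.1% of all genes, and 5 fell with each antagonist, beside 3.3% of all genes with EP+TPA and 6.39% with EP+RU486. Areg rose with EP by 3.29 (SE 0.57, adjusted p = 0.000586) and fell with EP+TPA relative to EP by 4.49 (SE 0.57, adjusted p = 9.24e-05). Another list held 22 receptors and cofactors that work with the 4 genes, and it shares members such as Pgr with the last. In LM, 2 of these fell with EP+TPA relative to EP (Pgr and Myb), beside 3.2% of all genes, and 0 rose. Myb, a luminal transcription factor, fell by 2.34 (SE 0.46, adjusted p = 0.0110). With EP+RU486 2 fell (Pgr and Myb) and 2 rose, shares near those of all genes (9.55% lower and 8.31% higher). Runx1, a luminal transcription factor, rose by 1.89 (SE 0.35, adjusted p = 0.00344, limma). In LP, 2 of 21 cofactors fell and 2 rose with EP+TPA relative to EP, and 3 fell and 2 rose with EP+RU486, shares near those of all genes (10.6% lower and 7.81% higher with EP+TPA, 11.8% and 9.03% with EP+RU486).

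Of 13 paralogs, 6 were tested in LM, and 0 fell with either antagonist relative to EP (3.2% of all genes with EP+TPA, 9.55% with EP+RU486). Cited2, a coactivator of the CITED family, rose with EP+RU486 relative to EP by 1.39 (SE 0.38, adjusted p = 0.0224) and Gata6 by 1.22 (SE 0.32, adjusted p = 0.0182). Tbx2, the closest relative of Tbx3, stood at 0.992 to 1.35 with EP+TPA, at 1.11 to 1.61 with EP+RU486 and at 0.992 to 1.07 with EP, and did not pass against EP (adjusted p = 0.794 for EP+TPA and 0.339 for EP+RU486, limma). Cited4, Gata2 and Tbx1 did not pass either against EP in LM. In LP, 5 were tested and Cited2 fell with EP relative to sham by 1.51 (SE 0.34, adjusted p = 0.00318) and rose relative to EP with EP+TPA by 1.07 (SE 0.34, adjusted p = 0.0372) and with EP+RU486 by 1.02 (SE 0.34, adjusted p = 0.0414). Cited4 rose in LP with EP relative to sham by 1.26 (SE 0.44, adjusted p = 0.0395).

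Markers of luminal progenitors were higher with the antagonists than with EP in LM, where Foxa1 and Tbx3 were lower, except in mouse 332. They were also lower with EP than with sham, as Cited1 was. The summed level of 15 such markers was 7175 to 8310 in 3 EP+TPA libraries and 340.8 in that of mouse 332, and 8175 to 10210 with EP+RU486. It was 358.0 to 575.0 with EP, against 2936 to 8957 with sham. Mouse 332, the only antagonist mouse with a Foxa1 value above 0 in LM, was the only one with a progenitor sum in the EP range or below it. The milk protein gene Csn3, the lactoferrin gene Ltf and Lalba were listed at 0 in all EP libraries and in the library of mouse 332, and were above 0 in every other LM library. Against EP, 3 of 14 tested progenitor markers rose with EP+TPA (1.32% of all genes) and 9 with EP+RU486 (8.31%) in LM, and 0 fell. With EP relative to sham 5 fell (9.14% of all genes) and 0 rose (10.3%). In LP the sum was 6262 to 7668 with EP+TPA, 5693 to 7110 with EP+RU486 and 558.4 to 3153 with EP, against 6961 to 11810 with sham. Its highest EP value was that of mouse 311, which had the lowest EP levels of Foxa1, Cited1 and Tbx3. In sorted bulk cells, fewer cells of a type and less RNA per cell cannot be told apart, and the part of cell composition in these differences was not tested.

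**Figure D4:**
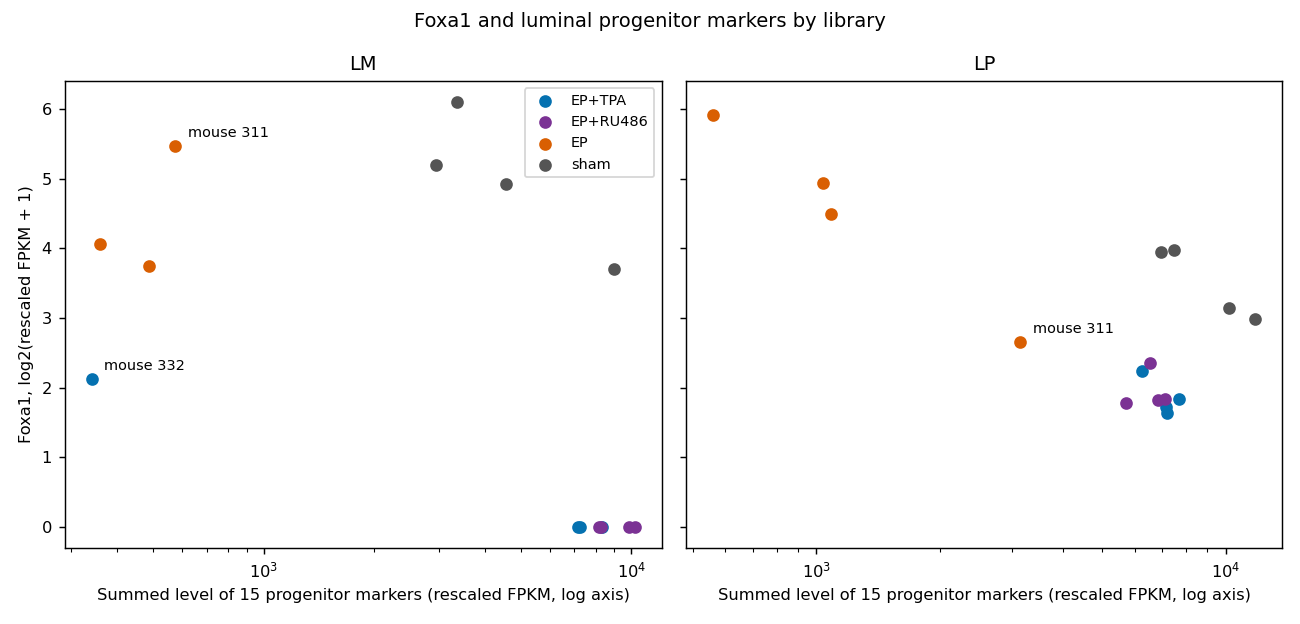
Foxa1 as log2(rescaled FPKM + 1) against the summed level of 15 luminal progenitor markers on a log axis, for LM and LP libraries by treatment. In LM the 7 antagonist libraries at 0 lie at sums of 7175 to 10210, and mouse 332 lies apart at 340.8; in LP the EP library of mouse 311 (3153) lies between the other EP libraries and the antagonist libraries.

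General luminal markers were detected in every LM group but fell in part. Of 11, 0 fell with EP+TPA and 3 with EP+RU486 relative to EP (3.2% and 9.55% of all genes). Relative to sham, 1 fell and 1 rose with EP+TPA (9.26% and 6.87% of all genes). With EP+RU486, 6 fell and 1 rose relative to sham (11.9% and 9.74%). Krt8 had levels of 605.3 to 2213 with EP+TPA, 80.7 to 756.1 with EP+RU486 and 874.5 to 2622 with EP, against 1551 to 2642 with sham. Of 16 basal markers, 0 rose with EP+TPA and 2 with EP+RU486 relative to EP in LM (1.32% and 8.31% of all genes), and 0 fell. Of 8 stromal, 8 endothelial, 4 tested immune and 5 tested adipocyte markers, only 1 stromal marker passed in LM against EP, with EP+RU486. Of 12 proliferation genes in LM, 11 rose with EP relative to sham (10.3% of all genes). Relative to EP, 11 fell with EP+RU486 (9.55% of all genes) and 0 with EP+TPA (3.2%). Their summed level was 82.3 to 84.0 in 3 EP+TPA mice and 198.0 in mouse 332, 62.1 to 95.2 with EP+RU486 and 122.2 to 241.2 with EP. None of the 12 passed between EP+TPA and EP+RU486 (smallest adjusted p = 0.423, limma).

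MSC did not show treatment differences in the 4 genes. None of 12188 genes passed in any of the 6 comparisons (0.0% of genes, limma), and 197 to 854 had an unadjusted p under 0.05. With library weights 1090 genes passed for EP against sham, 156 for EP+TPA against EP and 103 for EP+RU486 against EP. The values of Foxa1 and Cited1 lay close to the lowest value of the gene in either set. As deposited, Foxa1 was 2.02 to 2.44 in the 6 libraries of set 2 and 9.51 to 13.3 in the 10 of set 3, and Cited1 was 12.3 to 14.4 in set 2 and 35.9 to 46.5 in set 3. Levels are not comparable between the sets. Within set 3 the highest deposited values of Foxa1 and Cited1 (13.31 and 46.5) were those of EP mouse 311, and sham mouse 326 came next (12.57 and 41.25). Tbx3 was 1.94 to 10.1 in set 2 and 4.42 to 11.7 in set 3, and Gata3 was 10.2 to 16.9 and 30.9 to 69.0. With a term for the set, the fitted differences for EP against sham were -0.62 for Tbx3 (95% interval -1.35 to 0.11), -0.08 for Gata3 (-0.69 to 0.54), 0.07 for Foxa1 (-0.30 to 0.44) and -0.03 for Cited1 (-0.44 to 0.39). With library weights the Foxa1 difference was 0.36 (adjusted p = 0.0452). The basal keratin gene Krt5 was listed at 0 in 1 EP+TPA and 1 EP+RU486 library of MSC, which was not read as absence.

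MSC and LP could be compared in the 6 mice with both fractions in set 2 (1 EP+TPA, 2 EP+RU486, 2 EP and 1 sham mice). Gata3 was lower in MSC in all 6 mice, at 12.5 to 30.6 in MSC and 42.0 to 65.9 in LP. It fell by 1.44 on the log2 scale in MSC relative to LP (SE 0.20, adjusted p = 0.000471, limma over 11896 genes). This fit had terms for fraction and treatment and none for the mouse, and Gata3 also passed with the mouse as a block. Gata3 was the only member to pass, where 16.5% of all genes were lower and 22.7% higher in MSC. The split of all genes depended on scaling, with 2697 higher and 1966 lower here, 1311 and 5644 as deposited and 1780 and 3995 with scaling by the total. Foxa1 had 2.32 to 3.96 in MSC and 2.44 to 29.7 in LP, with a log2 fold of -1.17 (SE 0.49, adjusted p = 0.0822). It passed without mouse 323 in either fraction (log2 fold -1.499, adjusted p = 0.0457 and 0.0459) and with values as deposited (-1.65, adjusted p = 0.0112). Cited1 (-0.43, SE 0.48, adjusted p = 0.505) and Tbx3 (-0.06, SE 0.40, adjusted p = 0.912) did not pass. In the sham mouse and both EP mice, Foxa1, Cited1 and Tbx3 were higher in LP than in MSC. In the 3 antagonist mice the order of Cited1 and Foxa1 is not read, since their MSC values lay near their lowest values. Rescaling moved these, for Cited1 in mouse 323 to 24.4 in MSC (12.41 as deposited). Tbx3 was higher in MSC than in LP in the 3 antagonist mice. Its levels in MSC and LP were 8.34 and 2.10 (mouse 308), 3.8 and 1.53 (mouse 323) and 4.17 and 2.57 (mouse 324). As deposited, Tbx3 in mouse 324 was lower in MSC (2.62) than in LP (2.92). As a check of the fractions in these 6 mice, 16 of 16 basal markers were higher in MSC, and 12 of 14 progenitor and 10 of 11 general luminal markers were lower. The check does not cover the 10 MSC libraries of set 3. There the summed level of the 16 basal markers ran from 200.3 (EP+RU486 mouse 313) to 4534 (sham mouse 326). In the 6 mice, stromal markers were higher in MSC in 6 of 8 and endothelial markers in 7 of 8. Their part in the fold of Gata3 was not tested. Among 7 tested paralogs, 4 were higher and 1 was lower in MSC. Tbx2 was higher by 2.07 (SE 0.19, adjusted p = 4.19e-05) and Gata2 by 1.33 (SE 0.36, adjusted p = 0.0154), and Cited4 was lower by 2.02 (SE 0.23, adjusted p = 0.000170).

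**Figure D5:**
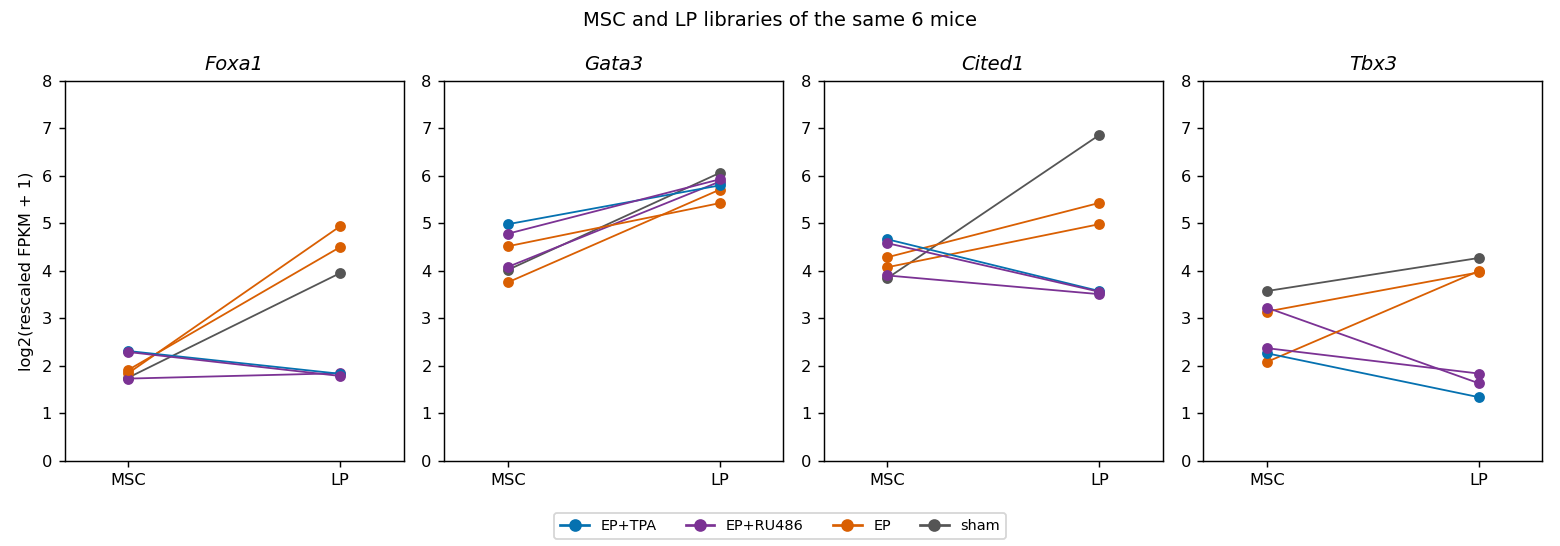
Foxa1, Gata3, Cited1 and Tbx3 as log2(rescaled FPKM + 1) in MSC and LP libraries of the same 6 mice, joined by a line per mouse and coloured by treatment. Gata3 is lower in MSC (12.5 to 30.6) than in LP (42.0 to 65.9) in all 6. The drawn lines of the other 3 genes run in different directions. For Foxa1 and Cited1 the order in the antagonist mice is not read, since rescaling moved their low MSC values. As deposited, Foxa1 was lower in MSC than in LP in mouse 323 (2.018 and 2.742) and mouse 324 (2.443 and 2.775).

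Genes with profiles most like a member were ranked by the mean absolute difference of standardised log2 values over the libraries of a fraction, in SD units. Over 15 LM libraries, Mtmr7 (0.0432), Ccdc92 (0.0819) and Cyp3a57 (0.0892) were nearest to Foxa1 among 11893 genes. Dmbt1 (0.0692), Fgg (0.101) and Dnaic1 (0.101) were nearest to Cited1, and Tuba8 (0.141), Cnn3 (0.144) and Ston2 (0.145) to Tbx3. The nearest to Gata3 were more distant, with Irx2 at 0.455, Fbxl20 at 0.495 and Mettl5 at 0.504. In LM, Foxa1 ranked 39 of 11893 for Tbx3 (0.233) and Gata3 ranked 7959 (1.29). Over 16 LP libraries, Slc7a2 (0.128), Mtmr7 (0.142) and Tox2 (0.146) were nearest to Foxa1 and Slc24a3 (0.128), Clip4 (0.163) and Ptn (0.1797) to Cited1. For Tbx3 in LP, Capn8 (0.204), Gipc2 (0.234) and Slc7a2 (0.238) came first and Foxa1 ranked 5 of 11383 (0.267), and Rxra (0.486), Ptch1 (0.495) and Adgrl2 (0.499) were nearest to Gata3. Mtmr7 was the only gene among the nearest 3 of the same member in both fractions. Profiles of a fraction share treatment groups and scaling, so many genes come close, and no p is given.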

How the data were processed

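The submitters' processing notes name STAR, Cufflinks and DESeq2, and mm9 as the genome build. Versions and order are not given in the sources used here. Per the labels' protocols, full-length cDNA (SMART-Seq v4) was made into Nextera XT libraries and read in pairs. The authors deposited values on the scale of FPKM, although labelled as read counts, with a gene-wise adjustment in 3 sets of libraries. The sets were inferred from identical positive values, of which library pairs shared 1382 to 6488 within a set and 0 across sets.

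A count test had been planned, but the unit did not allow it. Values were rescaled within sets by median-ratio factors (0.509 to 1.313) above a gene's shared lowest value, which also scales an unshared lowest value (up in libraries with a factor under 1, down in those above 1). Genes with a value of 1 or more in at least 3 libraries, and at least 3 above the shared lowest value, were tested with limma 3.58.1 in R 4.3.3 on log2(value + 1), with trend and robust moderation. The 4 treatments of a fraction shared a fit, with a set term in MSC. The Benjamini-Hochberg adjustment ran over every gene of a comparison, with a threshold of 0.05. A fold is a difference on the log2(value + 1) scale and understates changes of low genes. Near the lowest value of a gene in its set, the size of a fold also depends on that value. In LP this holds for Foxa1 and Cited1 with both antagonists and for Tbx3 with EP+TPA. Of 22007 symbols, 27 resembling dates were left out. Code was tested on simulated data.

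The mice are separate animals. MSC and LP libraries of the same mouse are paired, with correlations of deviations of -0.014 to 0.351. The main fit of MSC against LP had no term for the mouse. The members and lists were chosen with earlier results of these data known. Every member was named in each comparison. Other genes named were up to 4 of smallest adjusted p per list, the 3 receptors and tested paralogs, not all of them in each comparison. Areg, Stc2, Xbp1, Krt8, Dcn (LP), Krt5 (MSC), Csn3, Ltf and Lalba were named after their values were seen.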

Additional observations from a re-analysis of the deposited data

Results flagged for a closer look

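In groups of 4 libraries, a library was looked at again when its gap to the nearest other library, as a share of the range of the group, exceeded Dixon's 95% critical value. Of 28 LM and LP groups of the 4 genes, 3 held such a library, and MSC groups were left out because they span both sets. Chance gives about 1 in 20 for groups without ties, and 3 of the 28 had all values at 0 and could not be picked out, so the number is not set against chance. Foxa1 in the LM library of EP+TPA mouse 332 was 3.362, with the other 3 libraries listed at 0, so that its gap is the whole range. In LP, EP+RU486 mouse 304 had the highest level of its group for Foxa1 (4.092) and for Gata3 (79.15). What sets these libraries apart was not tested.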

How the results depend on the processing

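Depth in reads is unknown, LM levels cannot be set beside LP or MSC levels, and 3 or 4 mice per group limit each comparison. No direction of a called value turned. Of the 4 genes, the number past the threshold for EP against sham in LM was 1, and became 3 with library weights, 2 without EP mouse 311 and EP+TPA mouse 332 together (an alternative chosen after seeing the data) and 0 to 2 with 1 library left out (0 without EP mouse 327, 2 without EP mouse 311). For EP+TPA against EP in LM it was 2, and became 1 with no filter on low values, 0 with only those groups fitted and 1 to 2 with 1 library left out. For EP+RU486 against EP in LM it was 2, and became 1 with only those groups fitted and 3 with 0.1 added before the log or without EP mouse 306. For EP against sham in LP it was 1, and became 0 with only those groups fitted, 2 with library weights and 1 to 2 with 1 library left out (2 without EP mouse 311). For EP+RU486 against sham in LP it was 2, and 1 to 3 with 1 library left out (1 without sham mouse 305 or 326 or EP+RU486 mouse 308, 324 or 329), and Foxa1 also passed in 4 of 8 other alternatives. For EP+TPA against sham in LP it was 2, and 3 in 3 of 8 other alternatives and without EP mouse 311 or 327, where Foxa1 also passed. For EP against sham in MSC it was 0, and 1 with library weights. For MSC against LP it was 1, and became 3 with values as deposited, 2 with scaling by the total, 2 with scaling above the lowest value shared or not (also chosen after seeing the data), and 1 to 2 with 1 library left out (2 without mouse 323). With the mouse as a replicate block it stayed at 1, Gata3 at -1.44 (adjusted p = 0.00135, limma), and the block changed no other call. Counts over all genes moved as well. EP against sham in LM called 2317 genes, and 4321 with library weights. MSC against LP called 4663, and 6955 with values as deposited and 5775 with scaling by the total. EP+RU486 against EP in LM called 2124, and 2749 with only those groups fitted, where fewer of the 4 genes passed. EP+TPA against EP in LM called 538, against 183 to 2207 with 1 library left out (2207 without EP+TPA mouse 332) and 2 with only those groups fitted. In LP, EP against sham called 1850 higher and 1836 lower, against 3945 and 949 as deposited. The causes were not tested.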
